A study of Mus musculus with 9 samples.

Results

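Integrins are the main receptors through which cells hold on to the extracellular matrix. Each is a pair of 1 alpha and 1 beta subunit, and the pairing decides the ligand: some pairs bind the RGD motif of fibronectin and vitronectin, others laminins, collagens or counter-receptors on other cells. Laminins, trimers of an alpha, a beta and a gamma chain, build the sheet of the basement membrane and are themselves integrin ligands. In fibroblasts these receptors sit in focal adhesions and couple the matrix to the actin cytoskeleton, which is rearranged when cells shrink in hyperosmotic medium.

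The genes described here are the protein-coding genes of the table whose symbols are those of an integrin alpha or beta subunit or of a laminin alpha, beta or gamma chain. The rule used symbols and no measured value, and it found 37 of 35275 genes: 18 integrin alpha subunits, 8 integrin beta subunits, 5 laminin alpha chains, 3 beta chains and 3 gamma chains. Of these, 29 had enough counts to be tested, as 13082 genes had in all, and the other 8 are described by their counts. Levels within 1 gene are given as CPM, counts scaled to a common library size with TMM factors, and levels are compared between genes only as FPKM, which divides by transcript length.

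RNA was sequenced from wild type C57Bl/6 mouse embryonic fibroblasts (MEFs), a line kept in the laboratory and grown in DMEM with 10% serum. Cells stayed in iso-osmolar medium or received sucrose, 200 mM for a total of 500 mOsm (low intensity) or 300 mM for a total of 600 mOsm (high intensity), for 3 h. Each condition had 3 libraries. The labels do not say whether these were separate cultures, so the p-values measure the spread between these libraries, which may be technical.

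The libraries held 21716042 to 26740832 counts on genes, and their TMM factors lay between 0.974 and 1.01. A count of 3, the smallest taken as a signal here, corresponded to 0.113 to 0.137 CPM, a floor that covers counting error only. The fibroblast markers fixed for the check (9 of 11 at or above 1 CPM, among them Col1a1, Vim and Fn1) summed to 21396 to 22782 CPM in iso-osmolar medium, 21062 to 22116 CPM at 500 mOsm and 23891 to 25945 CPM at 600 mOsm, while Dcn and Lum were at or near 0 in all libraries. The sum follows its highest markers, and single markers differed. Col3a1 (47.5, 19.7 and 30.2 CPM on average), Pdgfra (37.7, 23.2 and 23.6), Col5a1 (1311, 990 and 1243) and Vim were lower in both stressed groups. Pdgfrb (265, 299 and 325 CPM), Thy1 and Fn1 were higher in both. In a bulk sample, fewer cells with a transcript and less of it per cell cannot be told apart.

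For the integrin genes on which the results turn most, the promoter windows of RefSeq (GRCm38.p6, the assembly also called mm10, 300 bases around the start site, written along the gene's strand) show what sequence stands before the gene that fell most and the pair of genes that rose most. Capitals mark matches to the GC box (GGGCGG), the AP-1 motif (TGANTCA) and the TonE motif of the osmotic stress factor TonEBP, searched on both strands. The Itga5 window is chr15:103366742-103367041, minus strand. The windows of Itgam and Itgax are chr7:128062390-128062689 and chr7:128129300-128129599, both plus strand.
Itga5: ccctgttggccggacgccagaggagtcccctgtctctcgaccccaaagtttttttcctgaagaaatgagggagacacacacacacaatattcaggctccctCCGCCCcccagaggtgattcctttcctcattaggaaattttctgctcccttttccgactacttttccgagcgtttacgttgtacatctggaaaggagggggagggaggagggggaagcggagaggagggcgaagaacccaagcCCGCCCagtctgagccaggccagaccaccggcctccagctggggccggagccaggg
Itgam: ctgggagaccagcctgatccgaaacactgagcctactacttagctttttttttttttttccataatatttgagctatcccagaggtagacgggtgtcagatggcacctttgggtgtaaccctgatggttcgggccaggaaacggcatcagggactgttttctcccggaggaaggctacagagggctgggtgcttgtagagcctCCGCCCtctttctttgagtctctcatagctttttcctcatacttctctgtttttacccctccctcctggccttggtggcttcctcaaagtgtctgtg
Itgax: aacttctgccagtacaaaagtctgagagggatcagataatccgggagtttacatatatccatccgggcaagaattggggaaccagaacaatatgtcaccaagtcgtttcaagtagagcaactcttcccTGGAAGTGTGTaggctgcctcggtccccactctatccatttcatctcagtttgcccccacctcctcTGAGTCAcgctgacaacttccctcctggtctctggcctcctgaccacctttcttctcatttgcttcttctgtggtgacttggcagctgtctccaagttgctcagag

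The Itga5 window held 2 GC boxes and the Itgam window 1, at position -47. The Itgax window held none, but an AP-1 motif at -56 and a TonE motif at -122. A GC box stands in 35.7% of all 32851 windows of this length, AP-1 in 7.81% and TonE in 23.0%. Windows were given for 23 of the 37 genes, 26 windows in all. Of these 26, 12 held a GC box (46.2%), 3 an AP-1 motif (11.5%; Itga3, Itga9 and Itgax), 6 a TonE motif (23.1%; Itga8, Itgav, Itgax, Itgb1, Itgb8 and Lama2) and 3 a TEAD motif (GGAATG, 11.5% against 14.7% of all windows; Itga10, Itgb1 and Lamb3). The NF-kB motif stood in 3 (11.5% against 8.46%; Itga3 and Lamb3) and the CArG box in 2 (7.69% against 1.63%; Itgb6 and Lama2). None held a TATA box (TATAAA), which stands in 13.6% of all windows. Some windows stand at start sites inside the gene and not at the start that the table gives it. The Itga9 window begins at chr9:118711442, against a gene start of 118606690. The Itgb6 window begins at chr2:60673644 and the Itga3 window with the AP-1 motif at chr11:95069149. These 2 genes lie on the minus strand and start at 60722643 and 95076801. All matches describe the letters of the windows only.

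In iso-osmolar MEFs the receptors for fibronectin and laminin stood at the top. Itga5, the alpha subunit of the classical fibronectin receptor, had 123 ± 4.91 FPKM (SD over 3 libraries) and Itga3, a laminin-binding alpha subunit, 119 ± 3.48, and their libraries overlapped. Below them came Itgb1, the beta subunit that both pair with (99.2 ± 5.51 FPKM), and Itgb5, a partner of Itgav in vitronectin receptors (71.1 ± 0.667). The laminin chains Lamb1 (36.9 ± 0.423), Lamc1 (34.2 ± 0.876) and Lamb2 (21.3 ± 0.856) and the subunit Itgav (20.9 ± 1.61, overlapping Lamb2) followed, each other neighbour in this order being apart in all libraries. These 8 were the genes over 10 FPKM in every condition. The laminin alpha chains were far lower than the beta and gamma chains: the highest, Lama5, had 1.23 ± 0.0368 FPKM. At both intensities Itga5 went from first place to behind Itga3, Itgb1 and Itgb5, with 53.4 ± 1.92 FPKM at 500 mOsm and 64.3 ± 1.98 at 600 mOsm, and its libraries were apart from those of Itgb1 and Itgb5. Itgb1 and Itgb5 themselves overlapped at 600 mOsm.

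**Figure D1:**
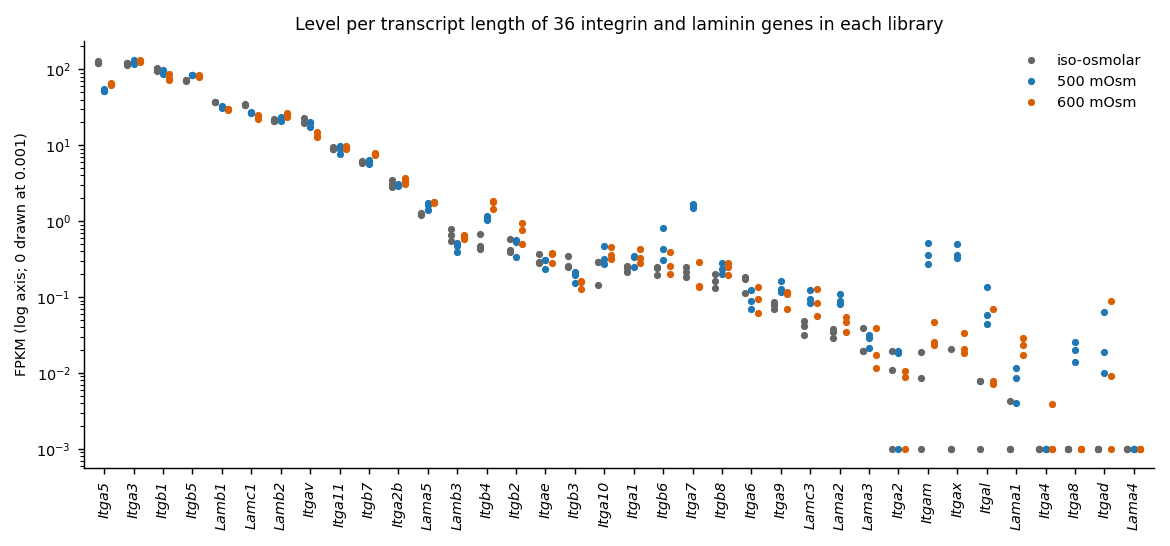
FPKM (log axis) of 36 integrin and laminin genes in each of the 9 libraries, ordered by the mean in iso-osmolar medium, with a value of 0 drawn at 0.001. Itga5, the highest in iso-osmolar medium, is below Itga3, Itgb1 and Itgb5 at both intensities, and Itgam, Itgax and Itga7 stand out upwards at 500 mOsm only.

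At low intensity, integrin and laminin genes were called in both directions. Against iso-osmolar medium, 10 of the 29 tested genes were higher at 500 mOsm and 4 lower by edgeR's quasi-likelihood test (adjusted p by Benjamini-Hochberg under 0.05 over 13082 genes). Of all genes tested 28.0% were called, 13.2% higher and 14.8% lower, a split that became 10.3% and 20.7% when each library was corrected for gene length. The higher genes included Itga7, Itgam, Itgax, Itgb4, Itgb5, Itgb6, Lama2, Lama5 and Lamc3, and the lower ones were Itga5, Lamb1, Lamb3 and Lamc1. Itgam, Itgax, Lama2 and Lamc3 did not pass the count filter without the 500 mOsm libraries. The median log2 fold change of the 29 genes was 0.09 (0.04 without 500 mOsm replicate 2, 0.24 without 500 mOsm replicate 1 or iso-osmolar replicate 2, 0.06 without iso-osmolar replicate 1 and 0.14 without 500 mOsm replicate 3), against 0.01 over all genes tested.

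At high intensity members were again called in both directions. Against the same iso-osmolar libraries, 6 were higher at 600 mOsm (Itgb4, Itgb5, Itgb7, Lama5, Lamb2 and Lamc3) and 6 lower (Itga5, Itgav, Itgb1, Itgb3, Lamb1 and Lamc1), beside 35.1% of all genes called, 15.1% higher and 20.0% lower. With the length correction 9 members were higher and 5 lower (13.7% and 17.0% of all genes), and without a gene filter 9 and 6. The median of the members was 0.23, against 0.01 for all genes, and it was 0.14 with at least 10 counts in every library or with the 2 groups alone, 0.12 on log2(FPKM + 0.1) and 0.03 on log2(FPKM + 1). None of the 13 tested alpha subunits was called higher at this intensity, and Itgav and Itgb1 were lower along with Itga5.

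The direct comparison of the intensities called 12 members, beside 29.1% of all genes, 11.9% higher and 17.2% lower (20.6% and 11.5% with the length correction, where the members split 8 higher to 5 lower). At 600 mOsm against 500 mOsm, Itga5, Itgb4, Itgb7 and Lamb2 were higher, and the lower ones included Itga7, Itgam, Itgav, Itgax, Itgb1, Lama2 and Lamc1. The median of the members was 0.00, against 0.01 for all genes. Over the 3 comparisons 19 members were called at least once, where 51.0% of all tested genes were, and 3 (Itga5, Itgb4 and Lamc1) in all 3. The 2 comparisons with iso-osmolar medium share its libraries, so their values are not independent.

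**Figure D2:**
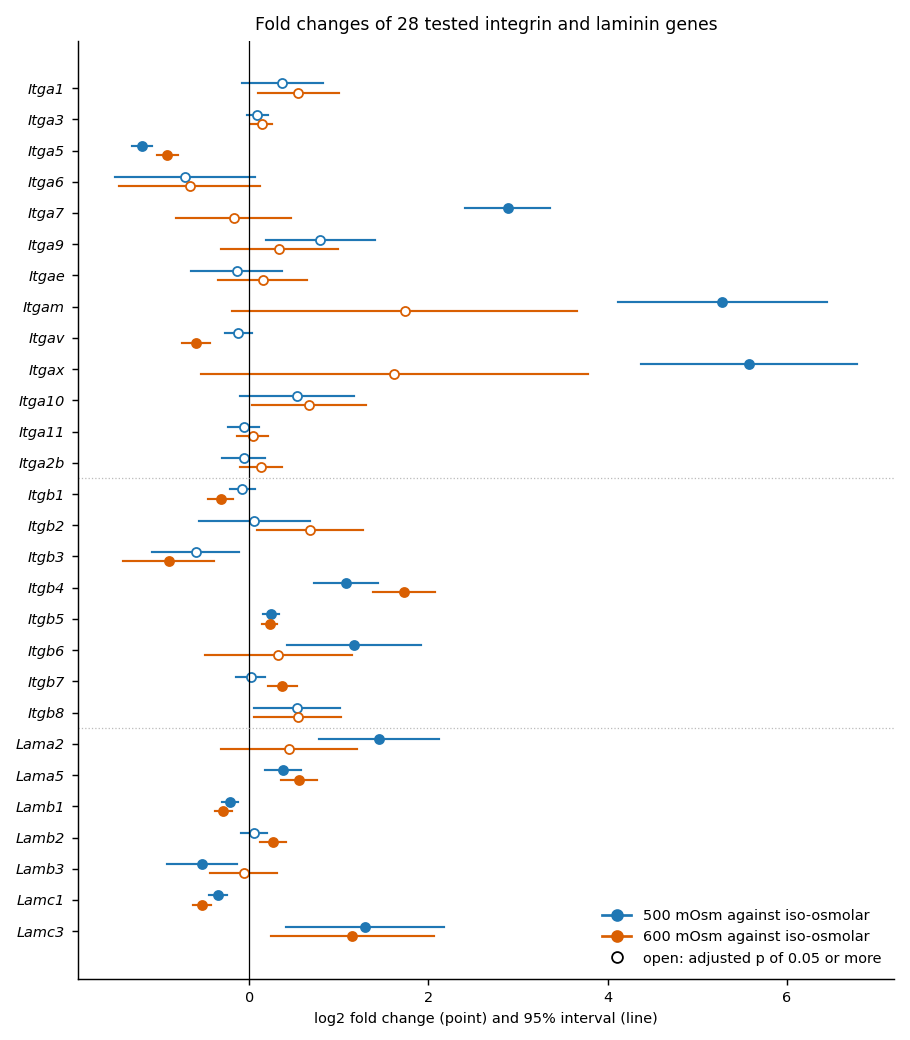
Log2 fold change of 28 tested genes at 500 mOsm and 600 mOsm against iso-osmolar medium, with the 95% interval of the edgeR fit, and open points where the adjusted p is 0.05 or more. Dotted lines part alpha subunits, beta subunits and laminin chains. Itgam and Itgax lie farthest right at 500 mOsm, at 5.28 and 5.58, and Itga5 farthest left, at -1.20.

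Itga5 (ENSMUSG00000000555, chr15:103344289-103366763, minus strand, mm10) was the member that lost the most transcript. It had 518, 566 and 520.0 CPM in the iso-osmolar libraries, 228, 245 and 226 CPM at 500 mOsm, and 294, 271 and 287 CPM at 600 mOsm. Every stressed library lay below every iso-osmolar one, and the 600 mOsm libraries lay above the 500 mOsm ones. The level was 2.29-fold lower at 500 mOsm (log2 fold change -1.20, SE 0.05, adjusted p = 6.36e-09, edgeR) and 1.88-fold lower at 600 mOsm (-0.91, SE 0.05, adjusted p = 9.23e-08). Between the intensities it was higher at 600 mOsm by a log2 of 0.28 (SE 0.05, adjusted p = 0.00147). Groups without overlap were common in this experiment: among all genes tested the share was 40.9% for 500 mOsm against the iso-osmolar libraries, 48.4% for 600 mOsm against them and 41.5% for the intensities against each other.

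Itgav (ENSMUSG00000027087, chr2:83724397-83806916, plus strand), the alpha subunit shared by most RGD-binding receptors other than that of Itga5, responded to high intensity. Its CPM were 158, 145 and 136 in iso-osmolar medium, 143, 124 and 138 at 500 mOsm, and 95.1, 104 and 91.7 at 600 mOsm. The 500 mOsm libraries overlapped the iso-osmolar ones (log2 fold change -0.12, adjusted p = 0.243), whereas all 600 mOsm libraries were lower than both other groups. The fall was 1.51-fold against iso-osmolar medium (-0.60, SE 0.07, adjusted p = 4.27e-05) and 1.39-fold against 500 mOsm (-0.48, SE 0.07, adjusted p = 0.000282). Its size depended on the processing: over 19 alternatives it ran from -0.65 to -0.42 against iso-osmolar medium. Against 500 mOsm it ran from -0.53 to -0.24, and both calls held. Its exons share 634 bases with Gm13684, annotated on the other strand and at most 0.454 CPM on average in any group, and the library kit is not described as marking strand, so reads of such partners cannot be told apart.

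Itga7 (ENSMUSG00000025348, chr10:128933813-128958277, plus strand), a laminin-binding subunit best known from muscle, rose at low intensity and not at high intensity. It had 1.001, 0.737 and 0.858 CPM in iso-osmolar medium, 6.76, 6.03 and 6.40 CPM at 500 mOsm, and 1.17, 0.537 and 0.580 CPM at 600 mOsm. The 500 mOsm libraries stood apart from all others, while the 600 mOsm and iso-osmolar libraries overlapped. The rise was 7.38-fold (log2 2.88, SE 0.22, adjusted p = 6.78e-07), the difference at 600 mOsm against iso-osmolar medium was -0.18 (adjusted p = 0.684), and the level at 600 mOsm was 8.33-fold lower than at 500 mOsm (-3.06, SE 0.22, adjusted p = 6.84e-07). The 4 skeletal muscle markers of the check summed to at most 0.205 CPM in any 500 mOsm library, with Myog at 0 in all 9 libraries.

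Itgam (ENSMUSG00000030786, chr7:128062640-128128160) and Itgax (ENSMUSG00000030789, chr7:128129547-128150656) encode alpha subunits of leukocyte receptors that pair with Itgb2 and bind complement fragments and adhesion molecules. They lie 1387 bases apart on the plus strand. Itgam had 2, 1 and 0 counts in the iso-osmolar libraries, 61, 35 and 45 at 500 mOsm, and 3, 5 and 3 at 600 mOsm. Itgax had 0, 0 and 2 counts, then 49, 35 and 38, then 2, 3 and 2. Both genes were thus at or under the floor in iso-osmolar medium and clearly counted in all 500 mOsm libraries, at 1.32 to 2.50 CPM for Itgam and 1.32 to 2.01 CPM for Itgax. The ratio of summed counts at 500 mOsm to iso-osmolar medium was 43.1 for Itgam (95% exact conditional interval 14.5 to 212, counting error only) and 56.0 for Itgax (15.2 to 467). Both were called higher (adjusted p = 9.25e-06 for Itgam and 7.59e-06 for Itgax), with a fitted log2 fold change of 5.28 and 5.58 that depends on the prior count. Both genes entered the test only through their counts at 500 mOsm, since they did not pass the count filter when the iso-osmolar and 600 mOsm libraries were fitted alone. A gene that enters in this way had to differ, so the counts and medians over the 29 tested members describe these members and support nothing further. At 600 mOsm neither was called against iso-osmolar medium (adjusted p = 0.150 for Itgam and 0.230 for Itgax), with count ratios of 3.60 (0.952 to 20.1) and 3.44 (0.655 to 33.9). Against 500 mOsm, Itgam was 11.7-fold lower at 600 mOsm (log2 -3.54, SE 0.42, adjusted p = 4.44e-05) and Itgax 15.6-fold lower (-3.96, SE 0.44, adjusted p = 2.69e-05).

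The beta subunit that Itgam and Itgax need was present but did not pass the test in any comparison. Itgb2 had 25, 42 and 30 counts in iso-osmolar medium, 24, 42 and 44 at 500 mOsm, and 54, 63 and 40 at 600 mOsm, which gave 0.06 at 500 mOsm (log2, adjusted p = 0.914) and 0.68 at 600 mOsm (adjusted p = 0.0702). The 6 leukocyte markers found of the 7 listed summed to 12.2 to 13.1 CPM in iso-osmolar medium, 16.6 to 18.1 CPM at 500 mOsm and 12.2 to 12.9 CPM at 600 mOsm, most of it Csf1r (11.2, 14.5 and 9.91 CPM on average). Ptprc, the pan-leukocyte surface phosphatase, was at 0.0288, 0.208 and 0.0139 CPM on average. Cd68 (1.28, 1.62 and 1.63 CPM) and Laptm5 (0.126, 0.821 and 0.762 CPM) were about as high at 600 mOsm as at 500 mOsm, and Cd3e was at 0, 0.0127 and 0.110 CPM. The summed level of the 5 endothelial markers was 0.860 to 1.06 CPM in iso-osmolar medium, 12.2 to 13.6 CPM at 500 mOsm and 2.18 to 3.45 CPM at 600 mOsm. Pecam1 gave 11.1 CPM of the level at 500 mOsm on average. Kdr (0, 0.353 and 0.0515 CPM on average), Tek (0.0152, 0.480 and 0.0547) and Vwf (0.0970, 0.273 and 0.116) were also highest at 500 mOsm. Cdh5 was at 0.553, 0.568 and 0.750 CPM. The part of other cell types in the rise of Itgam and Itgax was not tested.

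The genes around Itgam differed in direction, and of the tested genes in the stretch examined Trim72, Itgam and Itgax were called higher at 500 mOsm. Trim72, the nearest tested gene before Itgam on its strand, ends 51247 bases upstream and had 0.144, 2.59 and 0.0556 CPM on average in the iso-osmolar, 500 mOsm and 600 mOsm libraries (log2 fold change 4.14 at 500 mOsm, adjusted p = 2.31e-05). At such low levels in the other groups, Trim72 too entered the test through its 500 mOsm counts. Its call therefore describes this gene and supports nothing further. Some genes of the stretch too low to be tested were also highest at 500 mOsm. On average in the 3 groups Slc5a2 had 0.0273, 0.456 and 0.0438 CPM and Gm15533 0, 0.231 and 0.0139 CPM. B230325K18Rik had 0.0136, 0.207 and 0 CPM, and Pycard 0.130, 0.261 and 0.0716 CPM. Itgad, a leukocyte subunit that begins 3720 bases after Itgax, had 0 counts in all iso-osmolar libraries, 1, 7 and 2 at 500 mOsm, and 0, 8 and 1 at 600 mOsm. Cox6a2, which lies within Itgad on the other strand, was at 0.0849, 0.0767 and 0.0865 CPM. Downstream, the nearest tested gene, 9130023H24Rik, was lower at 500 mOsm (-1.28, adjusted p = 0.000271), Armc5 was not called there (0.11, adjusted p = 0.462) and Tgfb1i1 was lower (-0.48, adjusted p = 0.000156). The exons of Itgam share 3450 bases with Gm49368, a gene model on the same strand that the table does not list, and how such reads were assigned is not given in the sources used here.

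**Figure D3:**
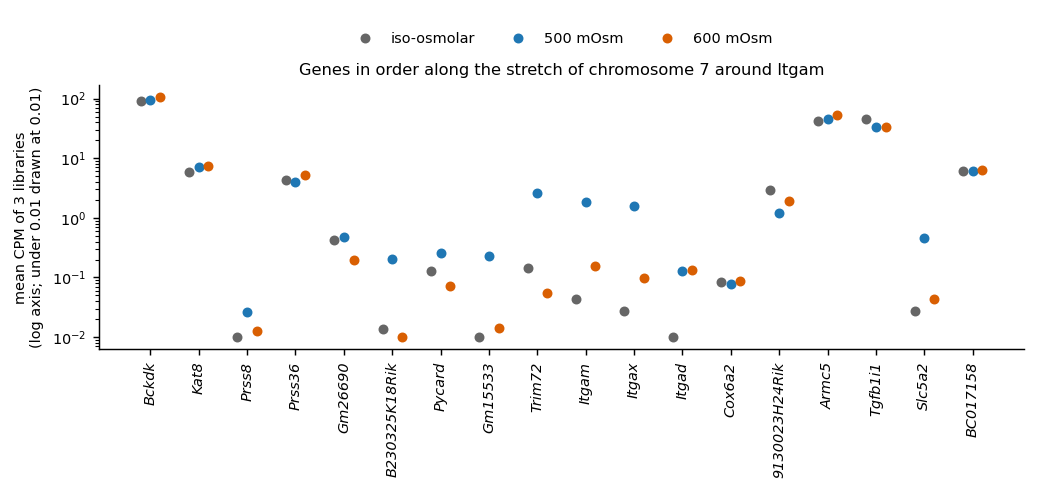
Mean CPM of the 3 libraries of each group (log axis, values under 0.01 drawn at 0.01) for the genes in order along the stretch of chromosome 7 that holds Itgam and Itgax. Trim72, Itgam and Itgax are highest at 500 mOsm, though not alone in this, while Bckdk, Armc5 and BC017158 lie close together on this axis in the 3 groups.

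The remaining tested alpha subunits were not called by the edgeR fit, though some alternatives called Itga3 at 600 mOsm (4 of 19, adjusted p from 0.0153 to 0.0427), Itga1 at 600 mOsm (2), Itga9 at 500 mOsm (2) and Itga10 at 600 mOsm (1). Itga3, which leads in stressed cells, had 550.4 to 591 CPM in iso-osmolar medium, 571 to 645 at 500 mOsm and 596 to 649 at 600 mOsm, with log2 fold changes of 0.09 (95% interval -0.03 to 0.21) and 0.14 (0.02 to 0.26, adjusted p = 0.0696). The collagen receptor subunit Itga11 (38.2 to 48.1 CPM over all libraries) had -0.06 and 0.04, and the platelet subunit Itga2b (9.65 to 13.1 CPM) -0.06 and 0.14. Itga1 and Itga10, which also bind collagen, had 0.37 and 0.55, and 0.53 and 0.67. Itga6, the partner of Itgb4, had -0.72 and -0.67 from 7 to 18 counts a library, Itga9 0.79 and 0.33, and Itgae -0.14 and 0.15. The low genes were measured loosely: the 95% interval of the log2 fold change at 500 mOsm ran from -1.50 to 0.07 for Itga6, against -0.23 to 0.11 for Itga11.

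Of the alpha subunits that were not tested, Itga2 had 0 to 2 counts a library and Itga4 a single count in all 9 libraries. Itga8 had 0 counts in iso-osmolar medium and at 600 mOsm and 2, 4 and 3 at 500 mOsm. This was 2.75-fold over a floor of 3 counts for the iso-osmolar group, which leaves out the counting error of the 500 mOsm counts. At 500 mOsm it was not called without a gene filter (adjusted p = 0.0543, edgeR) or in DESeq2 (adjusted p = 0.240). Itgad was 3.06-fold over the same floor at 500 mOsm and 2.95-fold over it at 600 mOsm, with most counts from replicate 2 of each group. Without a gene filter Itgad was called at both intensities (adjusted p = 0.0261 and 0.0275, edgeR), and in DESeq2 at neither (adjusted p = 0.126 and 0.105). Itgal, a further partner of Itgb2, had 0, 1 and 1 counts in iso-osmolar medium, 17, 8 and 6 at 500 mOsm and 1, 8 and 1 at 600 mOsm. Its count ratio at 500 mOsm was 14.2 (3.62 to 123), and it passed the threshold there when no gene filter was applied (adjusted p = 0.000333, edgeR) and in DESeq2 (adjusted p = 0.0257). The leukocyte alpha subunits other than Itgae were counted more often at 500 mOsm than in iso-osmolar medium, from levels near 0. This was not particular to them, since the RGD-binding subunit Itga8 did the same. Itgad had 10 counts in all at 500 mOsm and 9 at 600 mOsm. How common such rises are among genes near 0 was not tested.

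**Figure D4:**
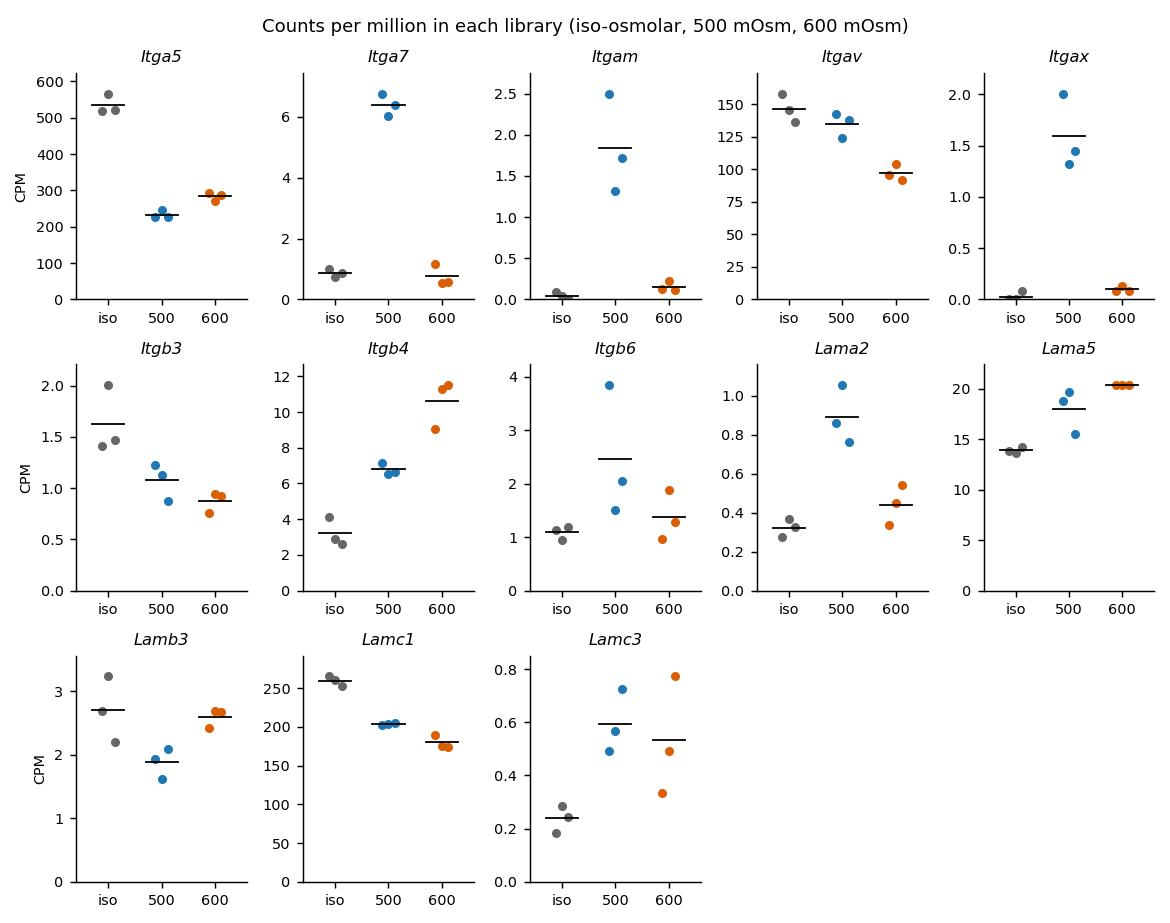
CPM of 13 members called with a log2 fold change of at least 0.5 in either direction, in each library of the 3 groups (points) with the group mean (line), each panel on a linear axis from 0. Itga7, Itgam, Itgax and Lama2 are high at 500 mOsm and near the iso-osmolar level at 600 mOsm, whereas Itgb4 and Lama5 stand highest at 600 mOsm.

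Among the beta subunits, Itgb4 (ENSMUSG00000020758, chr11:115974709-116008412, plus strand), which anchors epithelial cells to laminin in hemidesmosomes, was the one that rose with intensity. It had 4.14, 2.91 and 2.62 CPM in iso-osmolar medium, 7.17, 6.55 and 6.67 CPM at 500 mOsm, and 9.04, 11.3 and 11.5 CPM at 600 mOsm, and none of the 3 groups overlapped. The rise was 2.12-fold at 500 mOsm (log2 1.08, SE 0.16, adjusted p = 0.000273) and 3.31-fold at 600 mOsm (1.73, SE 0.16, adjusted p = 5.06e-06), and the intensities differed by 0.64 (SE 0.15, adjusted p = 0.00541). An annotated non-coding RNA on the other strand, B230344G16Rik, shares 537 exon bases with it and had at most 0.326 CPM on average.

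Itgb1 (ENSMUSG00000025809, chr8:128685654-128733200), the most connected beta subunit, fell slightly at high intensity. Its CPM were 365 to 398 in iso-osmolar medium, 336 to 368 at 500 mOsm and 280.5 to 330.3 at 600 mOsm. Against the iso-osmolar libraries it was 1.25-fold lower at 600 mOsm (log2 -0.32, SE 0.06, adjusted p = 0.00212) and against the 500 mOsm libraries 1.18-fold lower (-0.24, SE 0.06, adjusted p = 0.0138), while 500 mOsm gave -0.08 (adjusted p = 0.405). The call between the intensities was lost without replicate 1 (adjusted p = 0.0601) or replicate 3 (0.0632) of the 600 mOsm group and with the length correction (0.0864).

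Itgb5, at 218 to 219 CPM in iso-osmolar medium, was higher in both stressed groups, at 254 to 264 CPM at 500 mOsm and 254 to 259 at 600 mOsm. The differences of 0.24 on the log2 scale (SE 0.04, adjusted p = 0.000468) and 0.23 (SE 0.04, adjusted p = 0.000798) were small but larger than the spread between libraries, and the intensities gave -0.02 (95% interval -0.10 to 0.07). Itgb7, a lymphocyte beta subunit that pairs with Itga4 and Itgae, went from 15.7 to 16.2 CPM in iso-osmolar medium and 15.3 to 17.0 at 500 mOsm to 20.1 to 21.1 CPM at 600 mOsm, a log2 fold change of 0.37 (SE 0.07, adjusted p = 0.00213).

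Itgb3 (ENSMUSG00000020689, chr11:104608000-104670476), the beta subunit of the platelet fibrinogen receptor and of a vitronectin receptor, was low and fell further. It had 1.41, 2.01 and 1.47 CPM in iso-osmolar medium, 1.23, 1.13 and 0.876 CPM at 500 mOsm, and 0.753, 0.940 and 0.928 CPM at 600 mOsm. All stressed libraries lay below the iso-osmolar ones, with a log2 fold change of -0.60 (adjusted p = 0.0645) at 500 mOsm and -0.90 (SE 0.23, adjusted p = 0.0101) at 600 mOsm. Without iso-osmolar replicate 2 the latter was -0.72 (adjusted p = 0.0511).

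Itgb6 (ENSMUSG00000026971, chr2:60598292-60722643, minus strand), an epithelial partner of Itgav that activates latent TGF-beta, was higher at 500 mOsm. Its CPM were 1.14, 0.942 and 1.19 in iso-osmolar medium, 3.85, 1.51 and 2.06 at 500 mOsm, and 0.962, 1.88 and 1.28 at 600 mOsm. The rise at 500 mOsm was 2.25-fold (log2 1.17, SE 0.35, adjusted p = 0.0226), with replicate 1 of the group far above the others, and without it the log2 fold change was 0.71 (adjusted p = 0.102). The call was also lost without iso-osmolar replicate 1 (adjusted p = 0.0509) or 2 (0.0721). At 600 mOsm the log2 fold change was 0.33 (adjusted p = 0.541). Itgb8, another partner of Itgav, had 0.54 at both intensities (adjusted p = 0.0911 and 0.0769).

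Laminin chains moved in both directions: Lamb1 and Lamc1 fell at both intensities, Lama5 rose at both, and Lama2 passed the test at 500 mOsm and not at 600 mOsm, with a lower level at 600 mOsm than at 500 mOsm. Lamc1 (ENSMUSG00000026478, chr1:153218922-153332786, minus strand), the gamma chain of most laminins, fell in steps. It had 265, 259.9 and 253 CPM in iso-osmolar medium, 202, 204 and 205 CPM at 500 mOsm, and 189.9, 176 and 174 CPM at 600 mOsm, and the 3 groups did not overlap. The fall was 1.28-fold at 500 mOsm (log2 -0.35, SE 0.05, adjusted p = 8.30e-05) and 1.44-fold at 600 mOsm (-0.53, SE 0.05, adjusted p = 3.10e-06). The difference between the intensities, -0.18 (SE 0.05, adjusted p = 0.0120), was lost without 600 mOsm replicate 3 (adjusted p = 0.0509) or without a gene filter (0.0650), and with the length correction it turned to 0.07 (adjusted p = 0.472).

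Lamb3, a beta chain found mainly in epithelia, had 2.69, 3.24 and 2.21 CPM in iso-osmolar medium, 1.92, 1.62 and 2.10 CPM at 500 mOsm, and 2.43, 2.68 and 2.67 CPM at 600 mOsm. It was lower at 500 mOsm by the test (log2 -0.53, SE 0.18, adjusted p = 0.0446), a call that was lost in 13 of 19 alternatives, among them DESeq2 (adjusted p = 0.133). Leaving out any library but iso-osmolar replicate 3 or 500 mOsm replicate 3 also ended it, with adjusted p from 0.0515 to 0.183. Lama3 was not tested and had 5 to 9 counts in iso-osmolar medium, 6 to 8 at 500 mOsm and 3 to 11 at 600 mOsm. The 7 epithelial markers of the check summed to 0.205 to 0.490 CPM in iso-osmolar medium, 4.04 to 4.83 CPM at 500 mOsm and 0.348 to 0.628 CPM at 600 mOsm. Cdh1 carried most of this with 0.0137, 3.46 and 0.0943 CPM. Krt8 (0.271, 0.656 and 0.296 CPM on average) and Krt18 (0.0152, 0.116 and 0.0289 CPM) were also highest at 500 mOsm. Krt5 was at 0 in all libraries and Krt14 at 0.0834, 0.0635 and 0.0557 CPM. Epcam and Cldn4 averaged at most 0.0289 CPM in any group. The part of epithelial cells in the values of Itgb6 was not tested.

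Lamc3 (ENSMUSG00000026840, chr2:31887291-31946539, plus strand), a gamma chain of narrower distribution, was called higher at both intensities on few counts. It had 0.182, 0.287 and 0.245 CPM in iso-osmolar medium (4 to 7 counts), 0.491, 0.565 and 0.724 CPM at 500 mOsm, and 0.335, 0.492 and 0.773 CPM at 600 mOsm. Neither stressed group overlapped the iso-osmolar one, with a log2 fold change of 1.29 (SE 0.41, adjusted p = 0.0306) at 500 mOsm and of 1.15 (SE 0.42, adjusted p = 0.0490) at 600 mOsm. Lamc3 passed the count filter only through the 500 mOsm libraries, so its call at that intensity supports nothing further. Neither call was firm: DESeq2 gave adjusted p = 0.115 and 0.157. At 500 mOsm it was lost without any 1 of the iso-osmolar libraries or without 500 mOsm replicate 2 or 3 (adjusted p from 0.0539 to 0.102), and at 600 mOsm without any library but 600 mOsm replicate 1 (0.0553 to 0.243, with a log2 fold change of 0.77 without replicate 3 of that group).

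Of the alpha chains, Lama5 (ENSMUSG00000015647, chr2:180176373-180225859, minus strand), found in most adult basement membranes, rose at both intensities. It had 13.8, 13.6 and 14.2 CPM in iso-osmolar medium, 18.8, 19.7 and 15.5 CPM at 500 mOsm, and 20.3, 20.4 and 20.4 CPM at 600 mOsm. All stressed libraries were above the iso-osmolar range, by 1.30-fold at 500 mOsm (log2 0.37, SE 0.09, adjusted p = 0.00802) and 1.47-fold at 600 mOsm (0.55, SE 0.09, adjusted p = 0.000563). The intensities differed by 0.18 (adjusted p = 0.164), and by 0.53 with the length correction (adjusted p = 0.00122). The call at 500 mOsm was lost with the length correction (adjusted p = 0.0574).

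Lama2 (ENSMUSG00000019899, chr10:26980036-27619758, minus strand), the alpha chain of muscle and nerve laminin, had 0.273, 0.369 and 0.327 CPM in iso-osmolar medium, 0.860, 1.05 and 0.762 CPM at 500 mOsm, and 0.335, 0.447 and 0.541 CPM at 600 mOsm. The 500 mOsm libraries stood above all others, a rise of 2.73-fold (log2 1.45, SE 0.31, adjusted p = 0.00315), while 600 mOsm gave 0.44 (adjusted p = 0.378). Lama2 passed the count filter only through the 500 mOsm libraries, where it is high, so its calls describe this gene and support nothing further. The fall from 500 to 600 mOsm (log2 -1.003, SE 0.29, adjusted p = 0.0197) was lost in 6 of 18 alternatives, among them DESeq2 (adjusted p = 0.140), and without 500 mOsm replicate 2 (0.0819) or 600 mOsm replicate 1 (0.0864). Lama1, the alpha chain of the embryonic basement membrane, had 0, 0 and 1 counts in iso-osmolar medium, 2, 3 and 1 at 500 mOsm, and 4, 6 and 6 at 600 mOsm, a count ratio of 15.7 (2.44 to 659) at 600 mOsm. Lama4, an alpha chain of mesenchymal and vascular cells, had 0 counts in all 9 libraries, which allows at most 3 counts a library.

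The 2 abundant beta chains changed in opposite directions at high intensity. Lamb1 had 209.6 to 218 CPM in iso-osmolar medium, 179 to 189 at 500 mOsm and 171 to 176 at 600 mOsm, a fall of -0.21 (SE 0.04, adjusted p = 0.00216) and of -0.29 (SE 0.04, adjusted p = 0.000244) on the log2 scale, the latter lost with the length correction (adjusted p = 0.0705). Lamb2 had 115 to 126 CPM in iso-osmolar medium, 116 to 132 at 500 mOsm and 131 to 152 at 600 mOsm. At 600 mOsm it was higher by 0.26 against the iso-osmolar libraries (SE 0.07, adjusted p = 0.00861) and by 0.21 against the 500 mOsm libraries (SE 0.07, adjusted p = 0.0300). The libraries of the intensities overlapped, and the latter call was lost with each of 4 libraries left out (replicates 2 and 3 of 500 mOsm, replicates 1 and 3 of 600 mOsm, adjusted p from 0.0541 to 0.111).

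Summed by class on the FPKM scale, the RGD-binding alpha subunits (Itga5, Itgav, Itga8 and Itga2b) went from 147 ± 4.98 FPKM in iso-osmolar medium to 75.6 ± 0.499 at 500 mOsm and 81.3 ± 1.45 at 600 mOsm. The laminin-binding ones (Itga3, Itga6 and Itga7) stood at 119 ± 3.43, 128 ± 6.43 and 129 ± 4.27 FPKM. The collagen-binding ones stood at 9.62 ± 0.468, 9.43 ± 1.02 and 10.0 ± 0.451, and the leukocyte ones at 0.334 ± 0.0457, 1.17 ± 0.260 and 0.459 ± 0.135. The RGD-, laminin- and collagen-binding sums largely followed 1 gene each. On average Itga5 made up 83.6%, 70.7% and 79.1% of the RGD-binding sum in the 3 groups. Itga3 made up 98.7% to 99.8% of the laminin-binding sum and Itga11 92.7% to 94.9% of the collagen-binding one. The sum of all alpha subunits went from 276 ± 7.33 to 214 ± 6.02 and 221 ± 4.59 FPKM, while the beta subunits were at 178 ± 6.17, 186 ± 4.80 and 171 ± 11.0. In an exact two-sided permutation test the RGD-binding sum gave p = 0.1 at both intensities (0.188 adjusted over 30 comparisons), the smallest p that 3 against 3 libraries allow, so no class could pass 0.05.

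The laminin gamma chains went from 35.8 ± 0.880 to 31.1 ± 0.691 and 24.8 ± 1.07 FPKM, and the alpha chains were at 1.29 ± 0.0377, 1.71 ± 0.191 and 1.86 ± 0.0337, each with p = 0.1 against iso-osmolar medium at both intensities in the same exact permutation test. The beta chains were at 58.9 ± 1.38, 54.3 ± 2.14 and 55.7 ± 1.36 FPKM. The makeup of the classes differed as well. Itga5 made up 44.5% ± 0.655 of the alpha subunit FPKM of the iso-osmolar libraries, 25.0% ± 0.685 of that at 500 mOsm and 29.1% ± 0.346 of that at 600 mOsm, and Itga3 43.0% ± 0.912, 58.9% ± 1.40 and 58.2% ± 0.811. Among beta subunits Itgb1 went from 55.7% ± 1.15 to 50.3% ± 1.74 and 45.8% ± 1.77, and Itgb5 from 40.0% ± 1.12 to 45.1% ± 1.57 and 48.0% ± 1.69. Lamb2 made up 36.2% ± 0.610 of the beta chains, then 40.6% ± 0.953 and 45.3% ± 1.62.

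**Figure D5:**
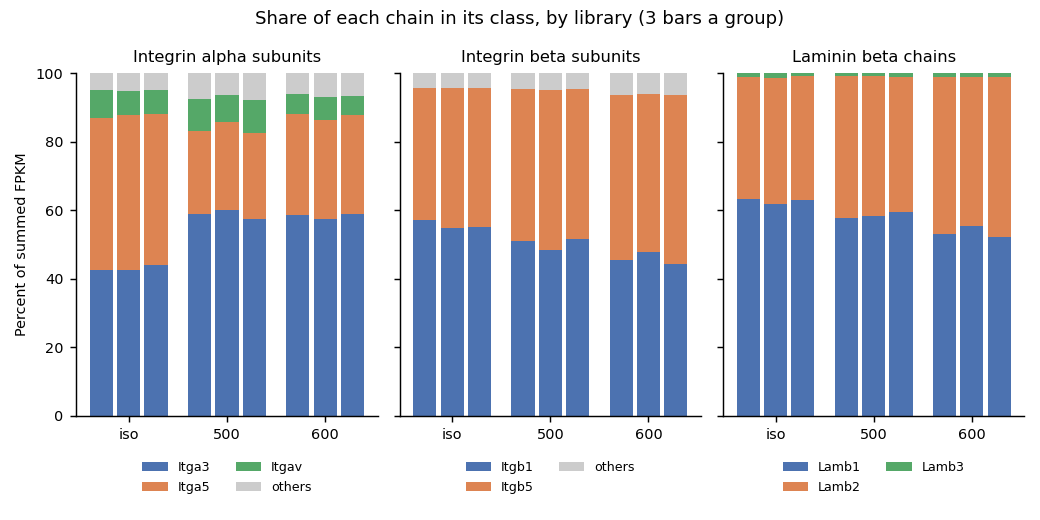
Percent of the summed FPKM of a class held by each chain, 1 bar for each library and 3 bars for each group, for integrin alpha and beta subunits and laminin beta chains. The share of Itga5 is smaller and that of Itga3 larger in all 6 stressed libraries.

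The nearest tested gene before each member on its strand was looked up in the table's annotation. Before Itga7 stands Cd63, 20997 bases upstream, at 650.2 and 641 CPM on average in iso-osmolar medium and at 500 mOsm (log2 fold change -0.02, adjusted p = 0.831). Before Itgb4 stands Sap30bp, 7984 bases upstream, which was lower at 500 mOsm (-0.28, adjusted p = 0.000465), and before Itgb6 stands Rbms1, 27550 bases upstream, also lower (-0.48, adjusted p = 0.00460). Before Itga5 stands Gtsf1, 35642 bases upstream, at 0.487 and 0.597 CPM (0.31, adjusted p = 0.651). Apart from Trim72 before Itgam, Itgam before Itgax and Itgax before Itgad, no such gene passed the test as higher at 500 mOsm before a member that was higher there.

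The proteins that switch integrins on and link them to actin were called in both directions. Of 20 activators and proximal adaptors 17 were tested: 3 were higher and 2 lower at 500 mOsm, 2 higher and 7 lower at 600 mOsm, with medians of -0.01 and -0.04. For this and the next lists, the shares of all genes tested were 13.2% higher and 14.8% lower at 500 mOsm and 15.1% higher and 20.0% lower at 600 mOsm. Parvb, an adaptor of the integrin-linked kinase complex, fell from 107 ± 4.47 CPM to 43.7 ± 2.88 and 50.6 ± 1.67 (log2 -1.28, adjusted p = 1.10e-08, and -1.07, adjusted p = 7.40e-08). Kank1, which links talin to microtubules, fell by 1.05 and by 0.57 on the log2 scale (adjusted p = 0.000230 and 0.0113). Lims2, a partner of the same kinase complex, rose at 500 mOsm (1.69, adjusted p = 0.00272) from 0.338 CPM, and Kank2 by 0.34 (adjusted p = 0.0136). Rap1b and Apbb1ip, which act on talin, had -0.39 each at 600 mOsm (adjusted p = 0.00154 and 0.00343).

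Of 22 basement membrane partners and non-integrin laminin receptors 14 were tested, with 2 higher and 1 lower at 500 mOsm and 7 higher and 2 lower at 600 mOsm (medians 0.07 and 0.20), beside 28.0% and 35.1% of all genes called. Perlecan (Hspg2) rose by 0.26 and 0.43 (adjusted p = 0.0385 and 0.00182) and Fbln1 by 0.38 at 600 mOsm (adjusted p = 0.000198). The heparan sulfate proteoglycan Sdc4, a co-receptor of fibronectin, fell by 0.44 and 0.48 on the log2 scale (adjusted p = 7.39e-05 and 4.07e-05), and the laminin receptor Dag1 had -0.17 at 600 mOsm (adjusted p = 0.00895). Agrn, which binds laminin gamma chains, rose by 0.29 at 500 mOsm (adjusted p = 0.00191).

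Of 25 other integrin ligands 18 were tested, with 1 higher and 4 lower at 500 mOsm and 4 higher and 5 lower at 600 mOsm (medians -0.04 and -0.14), beside 28.0% and 35.1% of all genes called. Cyr61, a matricellular ligand of Itgav receptors, split the intensities: 1279, 2039 and 849.96 CPM on average, a log2 fold change of 0.67 (adjusted p = 9.30e-08) at 500 mOsm and -0.59 (adjusted p = 3.44e-07) at 600 mOsm. Its relative Ctgf fell at 600 mOsm by 1.25 on the log2 scale (adjusted p = 2.13e-07) and was also lower at 500 mOsm (-0.44, adjusted p = 0.000845). Tnc and Tgfb1 fell at 500 mOsm, by 0.71 and 0.70 (adjusted p = 5.22e-07 and 5.85e-05), and Col1a1 rose at 600 mOsm by 0.33 (adjusted p = 0.00163).

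Of 12 membrane proteins that associate with integrins 11 were tested, with 1 higher and 4 lower at 500 mOsm and 4 higher and 2 lower at 600 mOsm (medians -0.02 at both), beside 28.0% and 35.1% of all genes called. Cd44, the hyaluronan receptor, fell by 0.57 and 0.56 on the log2 scale (adjusted p = 0.000128 and 0.000157) and Plaur, the urokinase receptor, by 0.42 and 0.47 (adjusted p = 3.03e-05 and 1.42e-05). The tetraspanin Cd81 rose by 0.18 and 0.36 (adjusted p = 0.0482 and 0.000760).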

How the data were processed

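Per the deposited table, the authors gave for each of 35275 genes the read counts of 9 libraries, not normalized, and FPKM, which the authors made from these counts, the gene length and the library total. The deposited table also holds the authors' group means as normalized signal, their log2 fold changes and their p-values, none of which were used. RNA was poly-T selected, fragmented and primed with random hexamers. The submitters' processing notes name CASAVA 1.8, STAR and mm10. The counting tool, the annotation release and any use of strand are not given in the sources used here.

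Counts were analysed in R 4.3.3 with edgeR 4.0.16: filterByExpr (13082 genes), TMM factors, all 9 libraries in 1 quasi-likelihood fit, 3 comparisons, Benjamini-Hochberg adjustment over all genes tested and a threshold of 0.05. The test was tried on simulated data. Replicate pairs differed by more than sampling noise (chi-square per degree of freedom 5.15 to 15.4), and the common biological coefficient of variation was 0.0756. Ratios of low counts carry 95% exact conditional intervals, and a fold against 0 counts uses a floor of 3 counts over the group. Class sums of FPKM were compared by exact permutation (scipy 1.17.1). Promoter windows were RefSeq's, and motifs were searched on both strands.

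Some genes are not reported here, though counts over all members include them. Every library is given for the other members called with a log2 fold change of at least 0.5 in either direction, and from the other lists at most 2 genes per direction and comparison are named. Trim72, Cox6a2, Slc5a2, Gm15533, B230325K18Rik, Pycard, 9130023H24Rik, Armc5, Tgfb1i1 and the upstream neighbours were named for their position after their values were seen. The members and lists were chosen with earlier results of these data known. Alternatives were RLE factors or library size alone for TMM, no gene filter, at least 10 counts in every library, DESeq2 1.42.0, a fit of the 2 groups alone, a block for the replicate number, a loess correction for gene length in each library, limma 3.58.1 on log2(FPKM + 1) or log2(FPKM + 0.1), per-length CPM for the class sums, and each library left out in turn.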

Additional observations from a re-analysis of the deposited data

How the results depend on the processing

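Of the 38 calls among integrin and laminin genes, 26 held under every alternative that gave them a value (up to 10 that keep every library, and each of the 9 libraries left out in turn), and 12 were lost at least once. Itgam, Itgax, Lama2 and Lamc3 could not be tested with at least 10 counts in every library, nor in a fit of the iso-osmolar and 600 mOsm libraries alone. The calls of Itga5, Itga7, Itgam, Itgax, Itgav, Itgb4, Itgb5 and Itgb7 were among the 26. Members higher at 600 mOsm than at 500 mOsm numbered 8 instead of 4 with the gene length correction, and those lower 5 instead of 8, while the median of all genes tested moved from 0.01 to 0.09 on the log2 scale. With at least 10 counts in every library the lower members also numbered 5, fewer members being tested. With 1 library left out, 8 to 11 members were higher and 3 to 4 lower at 500 mOsm against the iso-osmolar libraries. For 600 mOsm against them these numbers were 5 to 7 and 5 to 6, and between the intensities 3 to 4 and 6 to 9. Signs turned for Lamc1 and Lamb1 at 600 mOsm against 500 mOsm with the length correction (0.0749 and 0.11, adjusted p = 0.472 and 0.178). They also turned for Itga7 at 600 mOsm against iso-osmolar medium without 600 mOsm replicate 2 or 3 (range over left-out libraries -0.62 to 0.0079) and for Itga3 between the intensities without 500 mOsm replicate 3 (range -0.0019 to 0.0947), none of them called. Calls gained were those of Itga1, Itga3, Itga9, Itga10, Itga11, Itgb2, Itgb3, Itgb6, Itgb8, Lama5 and Lamb3, each in at least 1 comparison and alternative.

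The values showed no pairing of libraries by replicate number: same-numbered libraries correlated on average at -0.085 in their deviations (9 pairs, -0.241 to 0.156), other numbers at 0.042, and 0 libraries fitted best with their own number. The deviations are from the group means, which ties these averages to each other. The labels do not say whether same-numbered libraries were handled together, and these values cannot exclude it. With the number as a block the members called higher and lower were 10 and 3 at 500 mOsm, 6 and 6 at 600 mOsm, and 3 and 8 between the intensities. The block ended the calls of Lamb3 at 500 mOsm (adjusted p = 0.0879) and of Lamb2 between the intensities (0.0692) and no other among the members.

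Genes with few counts, such as Lamc3, Lama2, Itgam and Itgax, limit the size of a fold change that can be stated, and the exposure was measured at 1 time in 1 line.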
